A study of Mus musculus with 11 samples.

Results

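Whole-tumor transcript levels were compared between 4 tumors grown from E0771 cells with the Pcx hairpin shPC28 and 4 tumors grown from E0771 cells with a scrambled hairpin (scram). E0771 is a mouse mammary carcinoma line. The 8 tumors were taken by their titles out of the 11 tumors of the series, and all 22206 probe sets of the array were used. The other 3 tumors carried another Pcx hairpin, shPC25, and enter only the shared estimate of the spread and the values set beside shPC28.

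Every group received 500000 cells, transduced before injection with pLKO.1, a lentiviral vector that drives its hairpin at all times, into the fourth mammary fat pad of female C57BL6J mice, 8 to 12 weeks old. The mice got no treatment and all were fed the same diet (LFD in the titles, not spelled out there). The hairpins act in the injected cells only, whereas the RNA came from the whole tumor with its fibroblasts, vessels and immune cells, so fewer cells of a type and less RNA per cell cannot be told apart in any value below. Each group goes back to 1 pool of transduced cells as far as the sources state. The tumors of a group therefore repeat the mouse only, and a difference between the cell pools cannot be told apart from an effect of the hairpin.

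Pyruvate carboxylase, the product of Pcx, works in mitochondria, where it joins carbon dioxide to pyruvate and so supplies oxaloacetate to the citric acid cycle. Cells use it to refill the cycle when its intermediates are drawn off for the synthesis of aspartate, nucleotides and lipids. Pyruvate that does not enter mitochondria is mostly reduced to lactate by lactate dehydrogenase (Ldha) and exported by the monocarboxylate transporters Slc16a1 and Slc16a3. A mammary tumor is also a tissue: cancer cells grow within a matrix laid down by fibroblasts and cut by metalloproteinases, and neutrophils and macrophages are drawn in by chemokines.

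Values are log2 signals as deposited, where a difference of 1 is a doubling, and ran from 1.43 to 18.7. Arrays correlated at r between 0.987 and 0.994. On the first principal component of the 8 arrays (21.1% of the variance) the shPC28 tumors lay between -35.0 and 17.4. Scram replicates 1 and 3 were at 35.7 and 32.3, above that range. Scram replicates 2 and 4 were at 15.7 and -25.2, inside it. The second component (18.5%) held the shPC28 tumors between 2.41 and 52.1 and the scram tumors between -31.7 and -11.2. Markers of mammary epithelium had a list mean between 4.69 and 5.68 in shPC28 tumors and between 4.96 and 5.32 in scram tumors. Of 1091 olfactory receptor probe sets, taken as genes not used in a tumor, 95% had a mean signal below 4.30.

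The tumor shPC28 replicate 4 carried transcripts of a lymph node. Glycam1, a ligand made by lymph node venules, had a signal of 11.13 in shPC28 replicate 4, against 3.13 to 3.20 in the other shPC28 tumors and 3.00 to 3.94 in the scram tumors. The chemokine Ccl21a was at 10.85 there, against 4.61 to 5.59 in the other shPC28 tumors and 4.02 to 4.81 in the scram tumors. Cxcl13, the chemokine of B cell follicles, was at 11.45, against 6.69 to 7.59 in the other shPC28 tumors and 4.78 to 9.57 in the scram tumors, so it set this tumor apart less clearly. The B cell surface protein Ms4a1 was at 6.69, against 2.00 to 2.43 in the other shPC28 tumors and 2.03 to 2.75 in the scram tumors. Averaged over the 16 B and plasma cell markers, the signal was 6.73 in this tumor, against 4.47 to 4.59 in the other shPC28 tumors and 4.31 to 4.71 in the scram tumors. Averaged over the 12 markers of lymph node vessels and follicles it was 6.80, against 4.58 to 4.74 in the other shPC28 tumors and 4.34 to 5.05 in the scram tumors. The venule genes Madcam1 and Chst4 of that list were dim in this tumor, at 2.31 and 2.66. Results are also given without shPC28 replicate 4, and beyond that the part of these transcripts in other differences was not tested.

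The target of the hairpin was read first. Pcx had signals of 3.76, 2.90, 2.32 and 3.44 in the shPC28 tumors and 3.41, 3.89, 4.48 and 4.13 in the scram tumors. In shPC28 replicates 1 and 4 the signal was above the lowest scram value, so the groups overlapped. The difference was -0.87 on the log2 scale (SE 0.30), with an exact two-sided permutation p of 0.0857 over 70 splits, where 0.0286 is the smallest p possible, and a limma adjusted p of 0.542. Without shPC28 replicate 4 it was -0.98, with an exact permutation p of 0.114 over 35 splits. All shPC28 tumors and 3 of the 4 scram tumors lay below the level of 4.30 that bounds the olfactory receptors, so the probe set read near background.

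Across the array no probe set passed a limma adjusted p of 0.05 (0 lower and 0 higher of 22206, 0%), and 1 passed an adjusted p of 0.1. At an unadjusted p below 0.05 there were 827 probe sets lower in shPC28 tumors (3.72%) and 819 higher (3.69%), together 7.41%. In 471 probe sets every shPC28 tumor lay below every scram tumor (2.12%) and in 536 every shPC28 tumor lay above (2.41%), together 4.53%. Leaving out shPC28 replicate 4 gave 788 lower (3.55%) and 803 higher (3.62%) at an unadjusted p below 0.05, together 7.16%. After centring each array on its median these splits became 552 lower and 1237 higher, and 272 lower and 832 higher, while the median difference over all probe sets was 0.01 as deposited, with 47.5% of probe sets below 0 and 52.3% above. The balance of lower and higher counts thus turned on this choice of scaling.

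Larger differences leaned to lower signals in shPC28 tumors. A difference of 1 log2 unit or more was found for 291 probe sets that were lower and 103 that were higher, and of 2 log2 units or more for 33 and 9. Among probe sets with no overlap the counts were 83 and 37 for 1 log2 unit, and 16 and 2 for 2 log2 units. With shPC28 replicate 4 left out there were 328 lower and 102 higher by 1 log2 unit or more, and 37 and 4 by 2 or more. After median centring the counts by 1 log2 unit or more were 238 lower and 129 higher. These sizes are a description with no test, and genes that vary more between tumors reach them more easily.

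**Figure D1:**
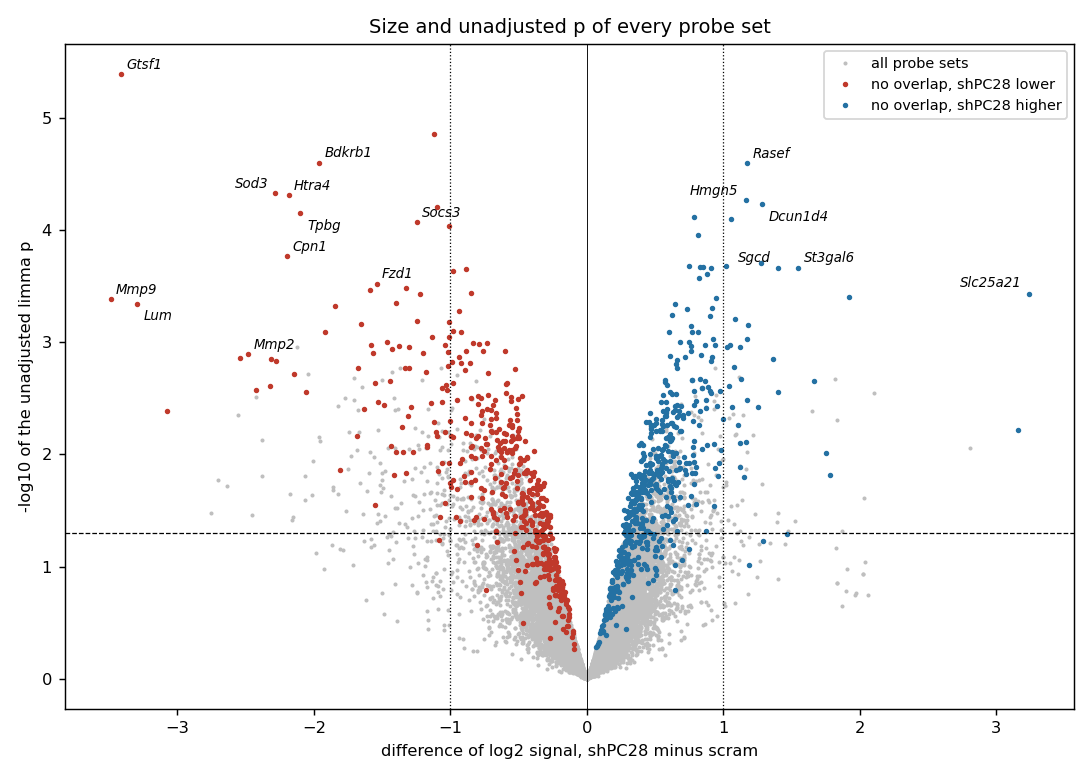
Difference of log2 signal (shPC28 minus scram, x axis) against the -log10 of the unadjusted limma p (y axis) for 22206 probe sets. Colored points are the 471 and 536 probe sets with no overlap between the groups, dotted lines mark 1 log2 unit and the dashed line an unadjusted p of 0.05. On the left 291 points reach 1 log2 unit, and on the right 103 do.

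Gtsf1 came closest to the threshold. It encodes a zinc finger protein known from the silencing of transposons by small RNAs in germ cells. Its signal was 4.28, 3.41, 3.27 and 5.08 in shPC28 tumors and 7.29, 6.90, 7.76 and 7.75 in scram tumors. In shPC28 replicates 1 to 3 it lay below the level of 4.30 that bounds the olfactory receptors, so these values were near background. The highest shPC28 value, that of the tumor with lymph node transcripts, was still below the lowest scram value. The difference was -3.42 (SE 0.41, limma adjusted p = 0.0897). Without shPC28 replicate 4 Gtsf1 fell by 3.77 on the log2 scale (SE 0.37, limma adjusted p = 0.0187) and was the 1 probe set past the threshold (0.0045% of those tested). Over all the alternatives tried the difference ran from -3.77 to -3.17 and the adjusted p from 0.0141 to 0.438.

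Among the other genes of smallest p with lower signals in shPC28 tumors, H6pd, which makes NADPH in the endoplasmic reticulum, read 9.05, 8.65, 9.0 and 8.87 in shPC28 tumors and 10.20, 9.87, 10.08 and 9.89 in scram tumors, a difference of -1.12 (SE 0.15, limma adjusted p = 0.140). Sod3, the extracellular superoxide dismutase, read 6.45, 5.64, 6.02 and 6.16 in shPC28 tumors against 9.45, 8.0, 8.39 and 7.56 in scram tumors, a difference of -2.28. Bdkrb1, the kinin receptor that inflammation induces, read 3.93 to 4.58 in shPC28 tumors, around the background level, and 5.68 to 6.57 in scram tumors. In each of these genes the groups were apart by more than the whole spread of the shPC28 tumors.

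Socs3, the feedback inhibitor of interleukin-6 family signaling, read 10.77, 11.10, 10.80 and 11.39 in shPC28 tumors and 12.15, 12.56, 12.44 and 11.89 in scram tumors (difference -1.25, SE 0.21, limma adjusted p = 0.144). Lpcat2, which makes platelet-activating factor, differed by -1.10, the serine protease Htra4 by -2.18, the trophoblast glycoprotein Tpbg by -2.10 and Cpn1, the catalytic subunit of a plasma carboxypeptidase that trims kinins and complement peptides, by -2.20. Tpbg and Cpn1 read around background in shPC28 tumors, at 3.92 to 4.89 and 4.19 to 4.65. Mical1, an oxidoreductase of actin filaments, differed by -1.01, the mesenchymal cadherin Cdh11 by -0.98 and the Wnt receptor Fzd1 by -1.54. Adjusted limma p-values of the 12 named genes with lower signals ran from 0.0897 to 0.230. Leaving out shPC28 replicate 4, their differences lay between -3.77 and -0.91, and the adjusted p of the 11 other than Gtsf1 ran from 0.319 to 0.387. Their sign could not change there, since they were chosen for having no overlap.

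In the other direction the 12 genes of smallest p differed by no more than 1.55 log2 units. Hmgn5, a nucleosome-binding protein that loosens chromatin, had signals of 12.80, 12.59, 12.65 and 12.91 in shPC28 tumors and 11.89, 11.36, 11.68 and 11.37 in scram tumors (difference 1.16, SE 0.19, limma adjusted p = 0.144). Uqcr10, a small subunit of respiratory complex III, read 12.71, 12.85, 12.45 and 12.73 in shPC28 tumors and 11.95, 12.02, 11.76 and 11.87 in scram tumors, a difference of 0.79. The groups stood apart in both genes, by more than the spread within either group. Dcun1d4, which takes part in the attachment of NEDD8 to cullins, differed by 1.28, the glycan-capping enzyme St3gal6 by 1.55 and the sarcoglycan Sgcd by 1.40.

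Socs7, another SOCS protein, lay higher, at 7.66 to 7.79 in shPC28 tumors against 6.75 to 7.26 in scram tumors. C2cd3, needed to build the centriole appendages from which cilia grow, differed by 1.02, and the mitochondrial ribosome assembly factor Mettl17 by 0.85. Zfp512 differed by 1.06, Simc1 by 0.81, Ramp1, which directs the calcitonin receptor-like receptor to its ligand CGRP, by 0.83 and Rasef, a small GTPase, by 1.17. Rasef was dim, at 3.93 to 4.33 in shPC28 tumors and 2.67 to 3.35 in scram tumors. Adjusted limma p-values of these 12 genes ran from 0.140 to 0.197, and without shPC28 replicate 4 from 0.319 to 0.387. They too were chosen for having no overlap, so their sign could not change. Outside the naming rule and chosen after its values were seen, Slc25a21, the mitochondrial carrier of 2-oxodicarboxylates, read 7.34, 7.51, 7.76 and 7.82 in shPC28 tumors and 4.13, 5.15, 5.22 and 2.98 in scram tumors, a difference of 3.24 (limma adjusted p = 0.243).

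**Figure D2:**
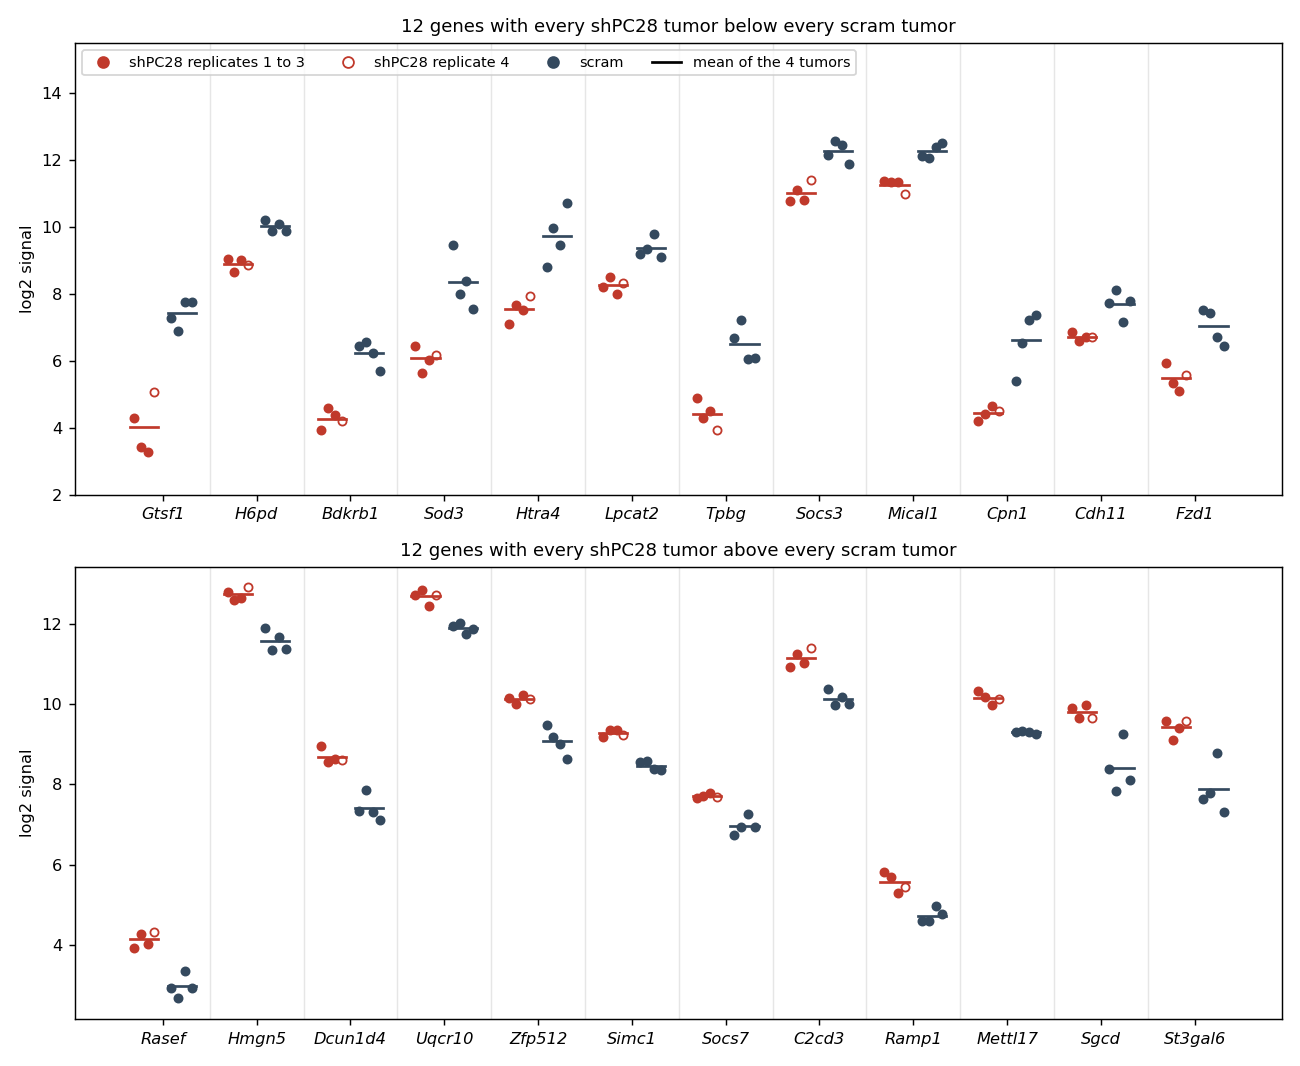
Log2 signal (y axis) of the 24 genes of smallest p with no overlap between the groups, in each shPC28 tumor (red, replicate 4 open) and each scram tumor (dark). Lines are means of the 4 tumors. Gtsf1 has the widest gap between the groups, with shPC28 tumors at 3.27 to 5.08 and scram tumors at 6.90 to 7.76.

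Metalloproteinases cut the proteins of the matrix, and many of them had lower signals in shPC28 tumors. All 19 measured members of the list of metalloproteinases and their inhibitors had a mean below that of the scram tumors (47.5% of all probe sets did), with a median difference of -0.89 (0.01 over all probe sets). At an unadjusted p below 0.05 there were 10 lower and 0 higher, against 3.72% of all probe sets that were lower, and 5 had no overlap, against 2.12%. With shPC28 replicate 4 left out the median was -0.85, with 10 lower and 0 higher (3.55% and 3.62% of all probe sets). This list and those below were chosen with earlier results of these data known. Their counts beside the shares of all probe sets are therefore a description with no test.

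Mmp9, the gelatinase stored in neutrophil granules and also made by macrophages and tumor cells, read 8.07, 9.84, 10.20 and 9.96 in shPC28 tumors and 12.52, 11.90, 13.45 and 14.16 in scram tumors. The difference was -3.49 (SE 0.71, limma adjusted p = 0.246). Mmp2, the gelatinase of fibroblasts, read 7.87, 6.67, 6.87 and 7.31 in shPC28 tumors and 10.61, 10.89, 8.69 and 8.45 in scram tumors, a difference of -2.48. The scram tumors split here, and the lower scram values were those of replicates 3 and 4. Timp3, a matrix-bound inhibitor, differed by -2.13, with 1 shPC28 tumor (6.13) above 1 scram tumor (5.88).

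Mmp3 and Mmp10, the stromelysins, differed by -2.28 and -2.42 with no overlap. Mmp3 read 9.85, 6.97, 7.76 and 8.45 in shPC28 tumors and 11.00, 10.01, 11.01 and 10.11 in scram tumors. Mmp14, the membrane protease that activates Mmp2, was bright in every tumor, at 14.37 to 14.63 in shPC28 tumors and 14.98 to 15.08 in scram tumors. Mmp13, a collagenase, overlapped (difference -1.03), and Mmp11, Mmp12, Mmp23, Timp2 and Adamts1 differed by between -0.31 and -0.09.

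The promoters of Mmp3, Mmp10 and Mmp13, neighbors on chromosome 9, are shown because these genes are well-known targets of the factor AP-1 through a site close to the start. The 250 bases before the start annotated by RefSeq (GRCm38.p6) are given 5′ to 3′, with the AP-1 motif TGANTCA in capitals. They lie at chr9:7445572-7445821, chr9:7502092-7502341 and chr9:7272264-7272513, all on the plus strand.
Mmp3: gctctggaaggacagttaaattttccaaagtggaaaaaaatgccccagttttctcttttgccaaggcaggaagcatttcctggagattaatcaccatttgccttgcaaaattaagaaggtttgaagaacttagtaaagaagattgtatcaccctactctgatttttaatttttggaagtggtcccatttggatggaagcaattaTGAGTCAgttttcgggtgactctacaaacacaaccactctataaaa
Mmp10: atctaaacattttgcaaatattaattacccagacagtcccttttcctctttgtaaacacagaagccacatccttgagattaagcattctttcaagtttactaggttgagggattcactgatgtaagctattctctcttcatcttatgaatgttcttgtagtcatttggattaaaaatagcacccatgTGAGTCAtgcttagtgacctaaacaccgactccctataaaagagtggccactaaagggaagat
Mmp13: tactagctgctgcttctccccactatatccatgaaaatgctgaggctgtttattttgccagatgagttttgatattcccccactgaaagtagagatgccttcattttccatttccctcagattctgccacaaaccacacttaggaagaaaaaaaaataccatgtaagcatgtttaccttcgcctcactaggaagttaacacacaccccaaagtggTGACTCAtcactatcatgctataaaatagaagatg
The motif reads the same on both strands and starts 46, 63 and 35 bases before the annotated start. Of the 13 listed metalloproteinase and inhibitor genes with a promoter in the table, 4 held it (30.8%), against 7.82% of all 27025 genes of the table. Of the 325 matched genes with no overlap and lower signals, 5.85% held it, which is not above that share. A match of letters is not a site in use, and AP-1 binding was not measured.

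For Socs3, a known target of STAT3, the same stretch lies at chr11:117969367-117969616 on the minus strand, with the STAT motif TTCNNNGAA in capitals.
Socs3: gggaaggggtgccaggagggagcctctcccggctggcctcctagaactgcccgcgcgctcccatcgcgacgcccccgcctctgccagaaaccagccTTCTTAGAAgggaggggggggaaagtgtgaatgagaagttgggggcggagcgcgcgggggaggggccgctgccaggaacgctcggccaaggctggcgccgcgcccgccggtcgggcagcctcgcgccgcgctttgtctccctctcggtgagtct
This motif, which also reads the same on both strands, was in 8.13% of all promoters of the table, in 10.2% of the 325 genes with no overlap and lower signals, and in 5.87% of the 409 matched genes with no overlap and higher signals.

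Small proteoglycans and glycoproteins of the matrix had a median difference of -0.96 over 18 members, with all 18 below scram in sign (47.5% of all probe sets). At an unadjusted p below 0.05 there were 8 lower and 0 higher (3.72% and 3.69% of all probe sets), and 4 had no overlap (2.12%). Lum (lumican), a proteoglycan that spaces collagen fibrils, read 6.83, 4.80, 5.59 and 5.75 in shPC28 tumors and 10.46, 10.10, 8.11 and 7.50 in scram tumors, a difference of -3.30 (SE 0.68, limma adjusted p = 0.252). Dcn (decorin), a close relative of lumican, read 10.74, 7.52, 9.76 and 9.21 in shPC28 tumors and 14.03, 13.24, 11.42 and 10.84 in scram tumors, so shPC28 replicate 1 lay just below scram replicate 4. Bgn (biglycan) differed by -1.55 and Fbln2 (fibulin 2), which bridges elastic fibers and basement membranes, by -1.33. The list median was -0.96 without shPC28 replicate 4, with 5 members lower, and without scram replicate 1 it was -0.66.

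Collagens were divided. Of 18 measured, 6 were lower at an unadjusted p below 0.05 and 0 higher (3.72% and 3.69% of all probe sets), and the list median was -0.23. The fibrillar chains Col1a1, Col1a2, Col3a1, Col5a1 and Col5a2 differed by -1.86, -2.38, -1.86, -1.20 and -1.75. The tumors within a group spread widely here, since Col1a2 read 11.53, 7.39, 9.56 and 9.65 in shPC28 tumors and 12.80, 13.21, 11.45 and 10.18 in scram tumors, with overlap. The chains of collagen VI and of the basement membrane collagen IV lay close to or above scram, with differences between -0.03 and 0.50 for Col6a1, Col6a2, Col6a3, Col4a1 and Col4a2. The list had 5 lower, 1 higher and a median of -0.12 without shPC28 replicate 4.

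Fibroblast markers were divided too. Thy1, a surface protein of fibroblasts that T cells also carry in mice, read 7.36, 7.45, 7.30 and 8.36 in shPC28 tumors and 9.88, 9.99, 9.01 and 8.98 in scram tumors, a difference of -1.85. Of 15 markers 6 were lower and 2 higher at an unadjusted p below 0.05 (3.72% and 3.69% of all probe sets), with a median of -0.48. These counts were 2 and 1 without shPC28 replicate 4, with a median of -0.57. The receptor Pdgfrb, which marks most fibroblasts and pericytes, read 10.14 to 10.76 in shPC28 tumors and 10.44 to 11.31 in scram tumors. Pericyte and contractile markers had 0 members past an unadjusted p of 0.05 among 12, and so did 17 endothelial markers, against 7.41% of all probe sets in either direction.

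**Figure D3:**
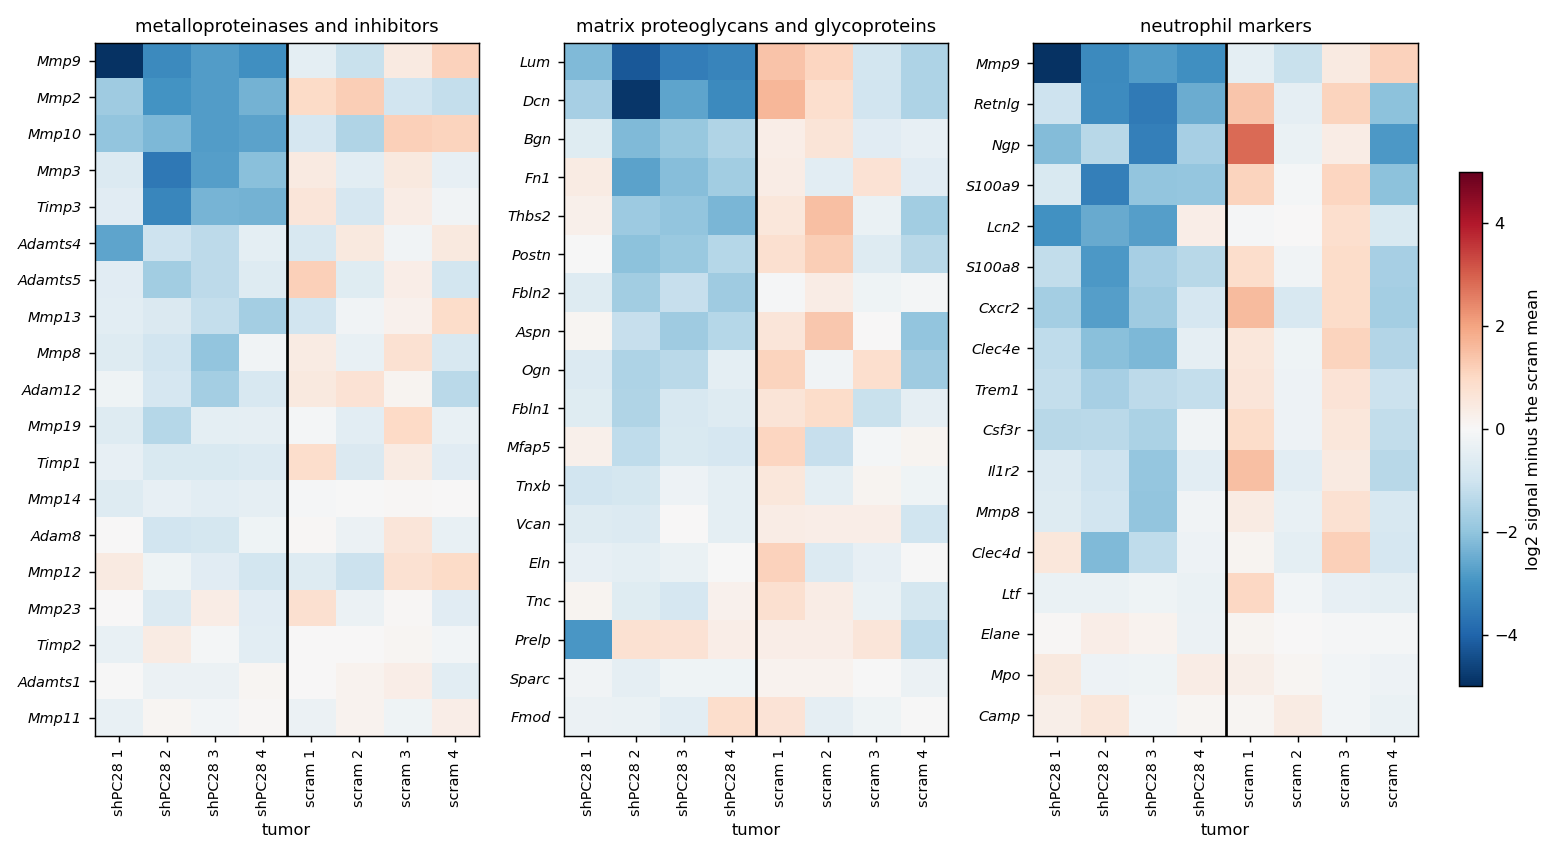
Log2 signal minus the mean of the 4 scram tumors (color) for every measured member of 3 gene lists (rows, ordered by the difference) in each tumor (columns, shPC28 left of the black line and scram right of it). Blue runs across the shPC28 columns in the upper rows, and most neutrophil rows of scram replicate 4 are blue as well, other than Mmp9.

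Neutrophil markers had the lowest median of the 38 lists, -1.35 over 17 members, with 9 lower and 0 higher at an unadjusted p below 0.05 (3.72% and 3.69% of all probe sets) and 2 with no overlap (2.12%). Their mean signal was 7.86, 7.31, 7.29 and 8.15 in shPC28 tumors and 9.73, 8.70, 9.54 and 7.92 in scram tumors. Scram replicate 4 lay between the shPC28 tumors, so the groups overlapped. Retnlg, a secreted protein of mature neutrophils, read 9.42, 7.29, 6.91 and 7.96 in shPC28 tumors and 11.83, 9.99, 11.58 and 8.41 in scram tumors, a difference of -2.56 (SE 0.72, limma adjusted p = 0.416). The alarmin S100a9 differed by -2.01, the chemokine receptor Cxcr2 by -1.76 and the activating receptor Trem1 by -1.35, with the groups apart for Trem1 only.

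The granule genes of immature neutrophils Mpo, Elane and Camp read between 2.15 and 3.21 in every tumor, around background. Ngp, another granule gene of the list, did not read at background throughout. It was at 4.01, 4.82, 2.78 and 4.54 in shPC28 tumors and 9.03, 5.86, 6.58 and 3.31 in scram tumors. The groups overlapped for Ngp, with a difference of -2.16. The list median was -1.44 without shPC28 replicate 4, with 10 members lower, and -1.70 without scram replicate 4. Lcn2, an iron-trapping protein made by neutrophils and by inflamed epithelium, read 12.84, 13.35 and 13.11 in shPC28 replicates 1 to 3 and 16.17 in replicate 4, against 15.09 to 16.68 in scram tumors.

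Genes of the TNF and NF-kB response were lower in sign in 26 of 27 (47.5% of all probe sets), with a median of -0.64. At an unadjusted p below 0.05 there were 8 lower and 0 higher (3.72% and 3.69% of all probe sets), and Socs3, Osm and Icam1 (3 of 27, against 2.12%) had no overlap. The cytokine Osm read 8.07, 8.35, 8.21 and 8.60 in shPC28 tumors and 9.77, 9.75, 9.30 and 9.74 in scram tumors, a difference of -1.33 (SE 0.33, limma adjusted p = 0.337). Csf3, the growth factor of neutrophils, read 8.61, 8.77, 9.10 and 10.75 in shPC28 tumors and 13.35, 11.79, 12.72 and 9.92 in scram tumors, a difference of -2.64. Both the highest shPC28 value and the lowest scram value of Csf3 came from replicate 4 of its group. The list median was -0.84 without shPC28 replicate 4, with 12 members lower. The subunits Rela and Nfkb2 differed by -0.21 and -0.26.

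Chemokines held 5 lower and 0 higher of 32 at an unadjusted p below 0.05 (3.72% and 3.69% of all probe sets), and 9 lower without shPC28 replicate 4 (3.55%). Cxcl5, which attracts neutrophils through Cxcr2, read 5.06, 3.36, 3.73 and 4.24 in shPC28 tumors and 9.0, 5.66, 6.41 and 4.85 in scram tumors, with overlap. Its partner Cxcl1 read 8.64 to 9.99 in shPC28 tumors and 9.77 to 12.31 in scram tumors, also with overlap. In the macrophage and monocyte list 4 of 20 were lower (against the same 3.72%, and 5 without shPC28 replicate 4), led by the endotoxin co-receptor Cd14, which read 9.59, 8.94, 9.06 and 9.69 in shPC28 tumors and 10.88, 9.97, 11.31 and 10.84 in scram tumors with no overlap (difference -1.43, limma adjusted p = 0.317). The macrophage growth factor receptor Csf1r read 11.09 to 12.28 in shPC28 tumors and 11.68 to 12.49 in scram tumors.

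In the complement list C1s1, a protease of the classical pathway, stood apart, at 11.30, 11.43, 11.80 and 11.42 in shPC28 tumors and 12.52, 12.74, 12.99 and 11.86 in scram tumors. Its inhibitor Serping1 differed by -1.43. The C1q chains C1qa, C1qb and C1qc, made by macrophages, differed by -0.19, -0.27 and -0.26, and 2 of 14 members, C1s1 and Serping1, were lower at an unadjusted p below 0.05 (3.72% of all probe sets), and 3 without shPC28 replicate 4 (3.55%).

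**Figure D4:**
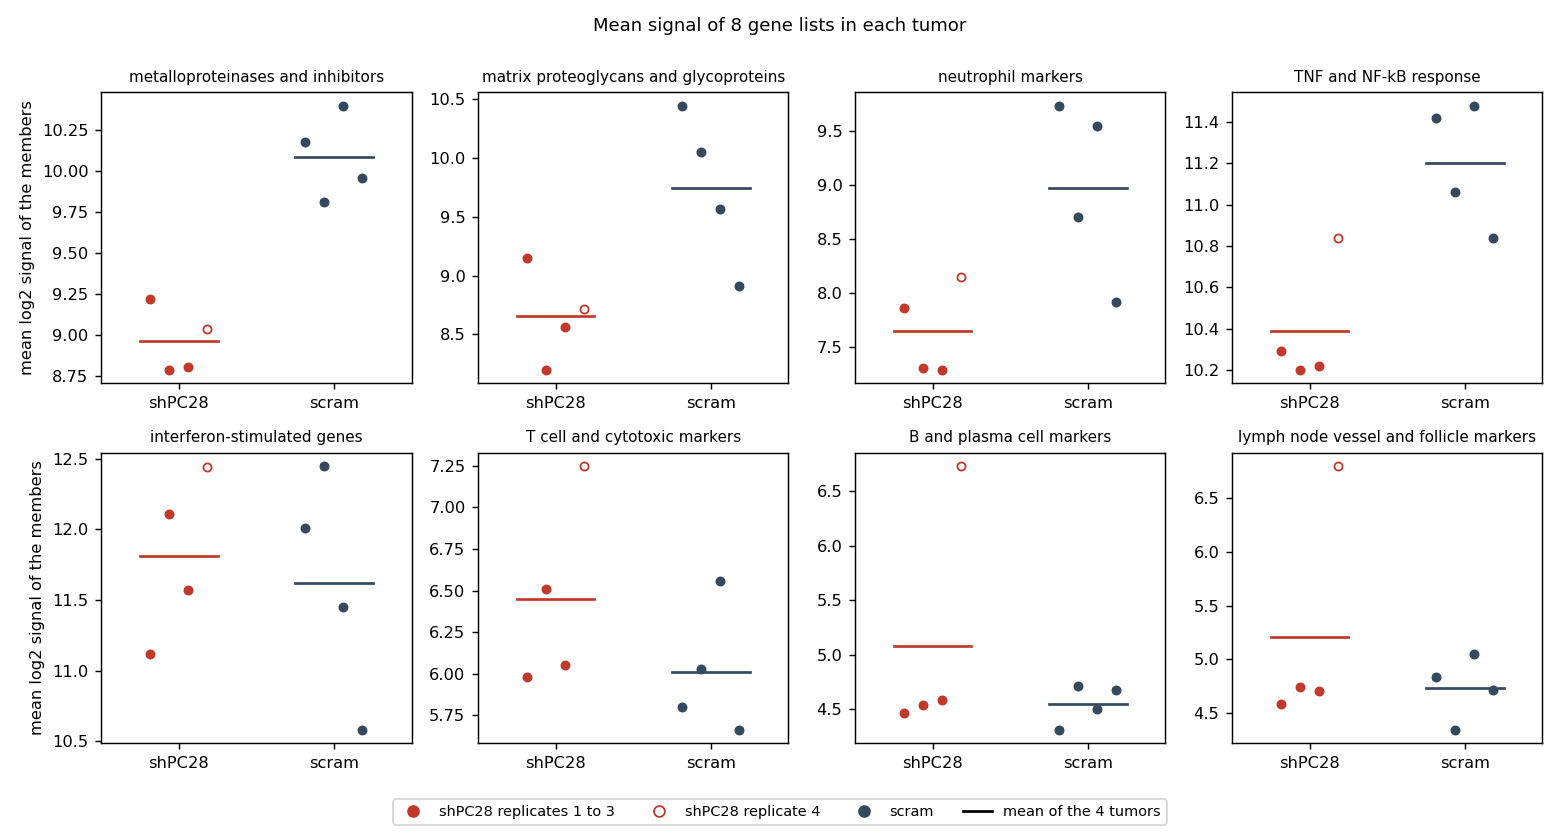
Mean log2 signal of the members of 8 gene lists (y axis, a scale for each panel that does not start at 0) in each shPC28 tumor (red, replicate 4 open) and each scram tumor (dark), with lines at the means. The metalloproteinase means do not overlap (8.79 to 9.22 in shPC28 tumors, 9.81 to 10.40 in scram tumors), and shPC28 replicate 4 stands alone in the B cell and lymph node panels.

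Of 18 T cell and cytotoxic markers 0 were lower and 2 higher at an unadjusted p below 0.05 (3.72% and 3.69% of all probe sets), with a median of 0.49. Leaving out shPC28 replicate 4 gave 0 lower and 1 higher (3.62% of all probe sets), with a median of 0.33. Cd8a, the co-receptor of cytotoxic T cells, read 7.47, 7.53, 7.03 and 8.84 in shPC28 tumors and 6.47, 5.76, 8.27 and 5.80 in scram tumors, a difference of 1.14 (SE 0.56, limma adjusted p = 0.710). Here 1 scram tumor, replicate 3, lay above 3 of the shPC28 tumors. Without shPC28 replicate 4, which read highest, the difference of Cd8a was 0.77. Cd4 differed by 0.42, and by 0.07 without shPC28 replicate 4. The checkpoint receptor Ctla4 read 4.83, 6.56, 6.86 and 6.91 in shPC28 tumors and 8.35, 7.80, 6.81 and 6.71 in scram tumors, a difference of -1.13. Cd274, which encodes PD-L1, differed by -0.64, with shPC28 tumors at 11.62 to 12.28 and scram tumors at 11.69 to 13.60.

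Of 16 B and plasma cell markers 0 were lower and 2 higher (3.69% of all probe sets), with a median of 0.56. Without shPC28 replicate 4 the median was 0.01, with 1 lower and 1 higher (3.55% and 3.62% of all probe sets). Interferon-stimulated genes had 30 of 35 higher in sign (52.3% of all probe sets were), a median of 0.14 and 0 members past an unadjusted p of 0.05. Their median was -0.04 without shPC28 replicate 4 and -0.19 without scram replicate 4, so its sign changed with single tumors. MHC class I and class II genes had 0 members past an unadjusted p of 0.05 among 15 and 12.

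**Figure D5:**
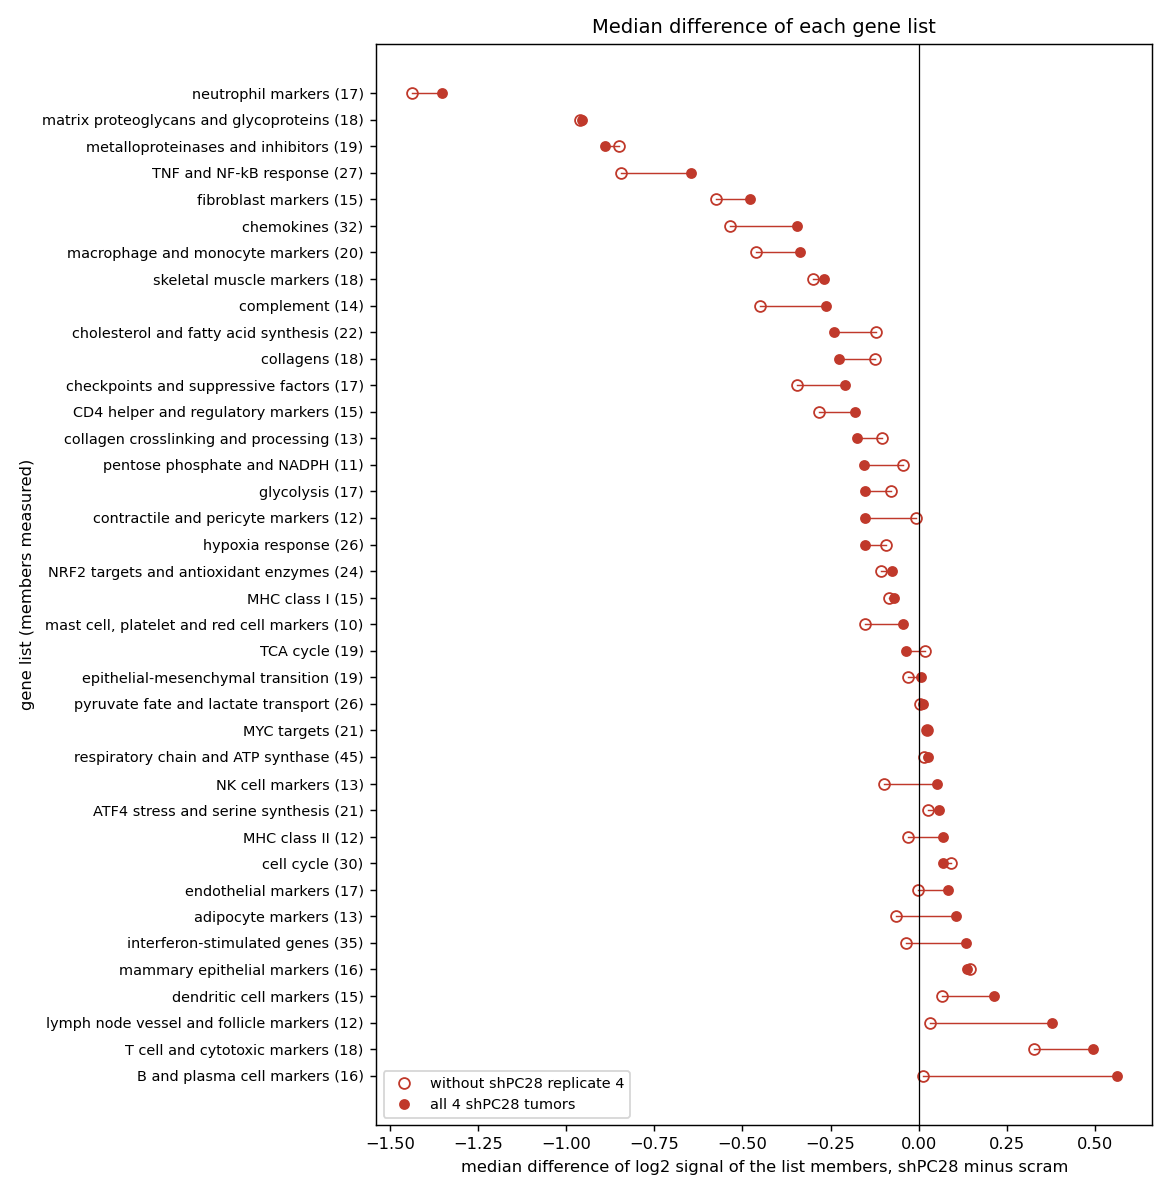
Median difference of log2 signal of the members of each of 38 gene lists (shPC28 minus scram, x axis), with all 4 shPC28 tumors (filled) and without replicate 4 (open). Neutrophil, matrix, metalloproteinase and NF-kB lists lie farthest to the left, and the B cell and lymph node lists move to about 0 without replicate 4.

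Among metabolic lists, the median was 0.01 for pyruvate fate and lactate transport, -0.04 for the citric acid cycle, -0.15 for glycolysis, -0.16 for the pentose phosphate pathway and NADPH and -0.24 for cholesterol and fatty acid synthesis, against 0.01 over all probe sets. In the cholesterol and fatty acid list 19 of 22 were lower in sign (47.5% of all probe sets). At an unadjusted p below 0.05 it held 1 lower (4.55%, near the 3.72% of all probe sets) and 0 higher. The list median was -0.12 without shPC28 replicate 4. Of 11 genes of the pentose phosphate and NADPH list 2 were lower (H6pd and Me1) and 1 higher (3.72% and 3.69% of all probe sets). These counts were also 2 and 1 without shPC28 replicate 4 (3.55% and 3.62% of all probe sets). In the list of pyruvate fate and lactate transport 4 of 26 were lower at an unadjusted p below 0.05 (3.72% of all probe sets), namely Mpc1, Pcx, Dlat and Me1. Mpc1, a subunit of the carrier that brings pyruvate into mitochondria, read 13.55, 13.18, 13.44 and 13.38 in shPC28 tumors and 13.89, 13.81, 13.97 and 13.65 in scram tumors with no overlap, a difference of -0.44 (SE 0.15, limma adjusted p = 0.535). Dlat, the acetyltransferase of the pyruvate dehydrogenase complex, read 12.48, 12.77, 12.76 and 12.91 in shPC28 tumors and 13.02, 13.02, 13.90 and 13.23 in scram tumors, a difference of -0.56 (limma adjusted p = 0.624). Me1, the cytosolic malic enzyme that makes pyruvate and NADPH from malate, differed by -1.52 with overlap. Without shPC28 replicate 4 the differences of Mpc1, Pcx, Dlat and Me1 were -0.44, -0.98, -0.62 and -1.83.

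Lactate genes were bright and close. Ldha read 17.02, 16.76, 17.00 and 16.81 in shPC28 tumors and 16.97, 16.95, 17.04 and 16.90 in scram tumors, a difference of -0.07. Slc16a1 differed by 0.02 and Slc16a3 by -0.10. Of 17 glycolytic genes 0 were past an unadjusted p of 0.05, and Pkm, pyruvate kinase, read 16.59 to 16.68 in shPC28 tumors and 16.83 to 17.19 in scram tumors with no overlap (difference -0.31, limma adjusted p = 0.689). Hif1a, the oxygen-regulated transcription factor, also had no overlap, at 15.48 to 15.80 in shPC28 tumors and 15.84 to 16.11 in scram tumors, a difference of -0.32 (limma adjusted p = 0.711).

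In the citric acid cycle list 1 of 19 was lower at an unadjusted p below 0.05, a share near the 3.72% of all probe sets. It was Sdhd, a membrane anchor of succinate dehydrogenase, which read 13.54, 13.85, 13.73 and 13.50 in shPC28 tumors and 14.10, 14.07, 14.80 and 13.98 in scram tumors. It was not past that p without shPC28 replicate 4, when 0 of the list were. Idh3a, a subunit of the NAD-dependent isocitrate dehydrogenase, had no overlap either (difference -0.32, limma adjusted p = 0.726). Of 45 genes of the respiratory chain and ATP synthase 1 was higher, Uqcr10, and 0 lower (3.69% and 3.72% of all probe sets), with a median of 0.03. Hypoxia genes held 3 lower and 0 higher of 26 (2 and 1 without shPC28 replicate 4, against 3.55% and 3.62% of all probe sets), among them Ddit4, an inhibitor of mTORC1, with a difference of -1.21 and overlap. Of 30 cell cycle genes 1 was lower and 1 higher, near the shares of all probe sets, and Mki67, a marker of dividing cells, read 12.99 to 13.24 in shPC28 tumors and 12.65 to 13.48 in scram tumors.

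Genes of epithelial junctions and of mesenchymal cells showed no common direction, with a list median of 0.01 over 19 members. Ocln (occludin), a tight junction protein, read 8.50, 9.39, 9.34 and 9.26 in shPC28 tumors and 7.52, 5.91, 7.20 and 8.60 in scram tumors, a difference of 1.82 (SE 0.46, limma adjusted p = 0.368), with an overlap between shPC28 replicate 1 and scram replicate 4. Twist1, a transcription factor of mesenchymal cells, also read higher, at 10.28, 10.45, 10.09 and 10.62 in shPC28 tumors and 9.89, 9.46, 10.02 and 9.62 in scram tumors, with no overlap and a difference of 0.61. The list held 4 higher (Ocln, Cldn3, Cldn4 and Twist1) and 1 lower (Fn1) of 19 at an unadjusted p below 0.05 (3.69% and 3.72% of all probe sets). Without shPC28 replicate 4 it held 4 higher and 0 lower, with Cldn7 in place of Cldn4. Cldn7 read 2.00 to 2.90 in shPC28 tumors and 2.29 to 2.54 in scram tumors, near background. The epithelial cadherin Cdh1 differed by -0.33, the junction protein Tjp1 by -0.06, the basal keratin Krt14 by -1.93 and the adhesion protein Epcam by 0.01. Cldn3, a claudin of tight junctions, and Foxa1, a pioneer factor of luminal cells, lay near background, at 2.87 to 3.91 and 3.66 to 4.87 in shPC28 tumors and 2.25 to 2.93 and 2.69 to 3.94 in scram tumors.

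Values of the hairpins are only set side by side. Both differences use the same scram tumors, so they are not independent, and a shared sign is not a repeat of the result. The genes named here were also chosen by their values in shPC28 and scram tumors. For shPC28 minus shPC25, 0 of 22206 probe sets passed the adjusted limma threshold (0%), with 1023 at an unadjusted p below 0.05 (4.61%), of which 547 were lower in shPC28 tumors (2.46%) and 476 higher (2.14%). Differences from scram were -3.42 for shPC28 and -2.62 for shPC25 in Gtsf1, -3.49 for shPC28 and -2.09 for shPC25 in Mmp9, and -1.25 for shPC28 and -1.16 for shPC25 in Socs3. Those of Uqcr10 were 0.79 for shPC28 and 0.76 for shPC25, and those of Slc25a21 were 3.24 for shPC28 and 2.31 for shPC25.

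Rasef and Ramp1 had the smallest unadjusted p for shPC28 minus shPC25 among the named genes. Rasef differed from scram by 1.17 in shPC28 tumors and by 0.12 in shPC25 tumors, and the difference between the hairpins was 1.05 (SE 0.19, limma adjusted p = 0.993). Ramp1 differed by 0.83 in shPC28 tumors and by -0.05 in shPC25 tumors, with a difference between the hairpins of 0.88. Since neither passed, these genes are not shown to respond to shPC28 alone.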

How the data were processed

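RNA of whole E0771 tumors was hybridized to mouse Clariom S arrays after WT PLUS labeling. Values were log2 signals, used as deposited by the authors, who had computed them with the Transcriptome Analysis Console of the array's vendor. How probes were summarized and background was removed is not stated in the sources at hand. The small number of arrays limits precision. Of 22206 probe sets, 19572 carried 1 gene symbol in the platform annotation and 2634 none. All 11 tumors (4 shPC28, 3 shPC25, 4 scram) were fitted with limma 3.58.1 in R 4.3.3 (lmFit and eBayes, 1 mean per group, two-sided, Benjamini-Hochberg over all probe sets, threshold 0.05), on the values as deposited with no probe set left out. Tumors repeat the mouse only. Pcx also had an exact permutation test. The fit was tested on simulated data.

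Genes named by rule were Pcx, the 12 of smallest p in each direction with no overlap between the groups (Gm and Rik symbols skipped), up to 3 of smallest p in each of 38 lists, and Ldha, Slc16a1, Slc16a3, Hif1a, Cd274, Cd4, Cd8a and Mki67. Other genes were named after their values were seen. Members and lists were chosen with earlier results of these data known. Of 742 listed genes 683 matched a symbol. Promoter sequences are from RefSeq, and the array annotation's own build was not given in the sources used here. Scaling, dim probe sets, variance prior, array weights, the tumors in the fit, the methods' t-test, a replicate block and each tumor left out in turn were tried as alternatives.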

Additional observations from a re-analysis of the deposited data

Results flagged for a closer look

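In 352 groups of 4 tumors (138 named genes and 38 list means, in shPC28 and scram tumors each) 19 values stood far from the other 3 tumors of their group by Dixon's test, which flags about 1 in 20 groups by chance. The tumor shPC28 replicate 4 gave 9 of them and shPC28 replicate 1 gave 4.

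Within shPC28 replicate 4, B and plasma cell markers averaged 6.732 (the other shPC28 tumors 4.471 to 4.592). The mean of the lymph node markers was 6.798 (4.581 to 4.741) and that of the TNF and NF-kB genes 10.84 (10.2 to 10.29). Single genes there were Ccl21a at 10.85 (4.61 to 5.59), H2-Ob, an MHC class II chaperone of B cells, at 9.51 (4.6 to 5.35), Fcrla at 4.13 (3.07 to 3.23), Thy1 at 8.36 (7.3 to 7.45), Cd59a at 6.7 (5.66 to 5.79) and Mical1 at 10.97 (11.34 to 11.37).

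In shPC28 replicate 1 Mmp9 was at 8.07 (9.84 to 10.2), Ctla4 at 4.83 (6.56 to 6.91), Car12 at 4.82 (6.53 to 6.73) and Ocln at 8.5 (9.26 to 9.39). Cpa3, a mast cell protease, was at 6.48 in shPC28 replicate 3 (7.27 to 7.41). Among scram tumors Sdhd was at 14.8 (13.98 to 14.1) and Osm at 9.3 (9.74 to 9.77) in replicate 3, Loxl3 at 10.09 (10.71 to 10.83) and the mean of the complement genes at 9.929 (10.83 to 10.94) in replicate 4, and Ccl21a at 4.02 (4.74 to 4.81) in replicate 2.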

How the results depend on the processing

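With 4 tumors a group precision is limited, and dim genes such as Pcx read close to the level of genes not used in a tumor. Of the named genes' values under the alternatives 2278 kept direction and side of the threshold, 11 passed it newly and 5 turned. No named gene passed the threshold in the main fit, so keeping the side meant staying short of it. Genes chosen for having no overlap could not turn with a tumor left out, so the first count says little about stability. Of the list medians 601 moved by less than the spread between tumors, some with a change of sign near 0, and 5 by more.

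The count at an adjusted p below 0.05 was 9 (7 lower, 2 higher) with a trended and robust prior, namely Gtsf1 (adjusted p = 0.0141), H6pd, Sod3, Htra4, Mical1, Socs3, Bdkrb1, Hmgn5 and Uqcr10 (each 0.0484). It was 0 to 1 with a tumor left out: Gtsf1 without shPC28 replicate 4, Sgcd (1.69, adjusted p = 0.0426) without scram replicate 3. Quantile normalization and leaving out shPC28 replicate 4 together, chosen after seeing the data, gave 1 (Gtsf1, -3.76, adjusted p = 0.0274). It was 0 with quantile normalization, median centring, either filter on dim probe sets, array weights, 8 tumors only and the methods' t-test (1635 at an unadjusted p below 0.05). With the replicate number as a replicate block it was also 0, with 1608 at an unadjusted p below 0.05 and Pcx at -0.87 (adjusted p = 0.638). The labels do not say that a replicate number is shared by mice. Deviations of same-numbered tumors correlated between -0.08 and 0.14, and those of other pairs between -0.14 and 0.17. Such correlations cannot decide whether the numbers pair tumors.

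With probe sets below the median signal left out, fewer were tested, and 987 had an unadjusted p below 0.05, 628 no overlap, and 171 lay lower and 59 higher by 1 log2 unit or more (counts by size were added after seeing the data). The median of the list of checkpoints and suppressive factors was -0.635 there. Over all 17 measured members it was -0.21, and -0.345 without shPC28 replicate 4. With a tumor left out the no-overlap count was 1607 to 2014, since 4 tumors against 3 separate more easily. Median centring put the medians of the citric acid cycle at 0.0288 and of the respiratory chain at 0.0938. With a tumor left out the citric acid cycle median was -0.0792 to 0.0183, that of the metalloproteinases -0.94 to -0.62, the difference of Slc16a1 -0.0475 to 0.0692 and that of Mki67 -0.0817 to 0.195. Slc16a1 was also -0.0103 with array weights. Pcx was not in the fits without dim probe sets. Medians of 7 lists turned sign without shPC28 replicate 4 (citric acid cycle, epithelial-mesenchymal, endothelial, adipocyte, interferon-stimulated, MHC class II and NK cell). The causes were not tested.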

Other observations

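Genes of cilia and centrosomes were chosen as a family after the values were seen. Ift, Bbs, Cep, Cfap or Tctn symbols were carried by 92 probe sets. Of these, 11 were higher in shPC28 tumors at an unadjusted p below 0.05 (against 3.69% of all probe sets) and 3 lower (against 3.72%). On the higher side 6 had no overlap (against 2.41%), and on the lower side 1 (against 2.12%). The median difference of the family was 0.12, and 0.15 without shPC28 replicate 4. Ift81, which carries tubulin along the cilium together with Ift74, read 9.0, 9.22, 9.16 and 9.31 in shPC28 tumors and 8.56, 8.01, 8.42 and 8.08 in scram tumors. The difference was 0.91 for Ift81 (limma adjusted p = 0.280) and 0.58 for Ift74, and without shPC28 replicate 4 it was 0.86 and 0.62. Under median centring higher counts grew across the array, so such a share depends on the scaling.

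Of 76 probe sets of interleukins and their receptors, also chosen after the values were seen, 8 were lower (10.5%, against 3.72%) and 0 higher. Il1rl2, the receptor of the interleukin-36 cytokines, read 5.06, 6.36, 5.27 and 5.86 in shPC28 tumors and 7.48, 7.13, 7.35 and 6.46 in scram tumors, with no overlap and a difference of -1.47. Its ligand Il1f9 differed by -1.28, Il1b by -0.82 and Il13ra1, a receptor chain for interleukin-13, by -1.48, each with overlap. Il22 and Il5, at 3.51 or below in every shPC28 tumor and 4.01 or below in every scram tumor, read near background.

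Skeletal muscle markers, which can come from muscle next to a mammary fat pad, had a mean signal of 4.26 to 4.56 in shPC28 tumors and 4.33 to 5.08 in scram tumors. Acta1, skeletal actin, read 4.65, 4.39, 5.07 and 5.13 in shPC28 tumors and 6.17, 5.77, 7.74 and 5.50 in scram tumors with no overlap, and of 18 markers 3 were lower and 1 higher at an unadjusted p below 0.05 (3.72% and 3.69% of all probe sets), and 3 and 0 without shPC28 replicate 4 (3.55% and 3.62%). Chosen after its values were seen, Scnn1a, a subunit of the epithelial sodium channel, read 8.74, 4.27, 9.07 and 5.40 in shPC28 tumors and 4.52, 4.02, 3.71 and 3.99 in scram tumors, so shPC28 replicates 1 and 3 stood far above every other tumor of the comparison.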
